A study of Mus musculus with 26 samples.

Results

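Transport vesicles that carry cargo between the endoplasmic reticulum (ER) and the Golgi were examined through 51 genes in the proximal small intestine (SI) of knockout and control mice. The genes were chosen by name as subunits and organisers of the COPII and COPI coats, the Sec22 family, the Tmed, *Surf4* and lectin cargo receptors and subunits of the TRAPP tethers, and all 51 were found among the 55487 genes of the count table. The study deleted 1 gene in intestinal epithelial cells (IECs) to ask how mitochondrial dysfunction affects the processing of dietary lipids. Knockout mice carried loxP-flanked alleles of that gene (fl/fl) and the Villin-creERT2 transgene, which drives a tamoxifen-inducible Cre only in IECs, and control mice were fl/fl without Cre. Both were 8 to 12 weeks old, received tamoxifen on 5 consecutive days and were killed 3 or 7 days after the last injection. QuantSeq libraries, which read the 3′ ends of polyadenylated transcripts, came from 7 control and 7 knockout mice at 3 days and from 6 and 6 mice at 7 days, 1 library per mouse. Each library was made from a piece of whole tissue, so the value of a gene is an average over the epithelium, the lamina propria and the muscle, and Cre acts in the epithelium alone.

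COPII is the coat of vesicles that leave the ER. The GTPase SAR1, activated by the exchange factor PREB, recruits an inner layer of SEC23 and SEC24, which binds the cargo, and an outer cage of SEC13 and SEC31, at exit sites that SEC16, TFG and MIA3 organise. COPI coats the vesicles that return from the Golgi to the ER, cargo receptors cycle between both compartments, and TRAPP complexes tether arriving vesicles and activate Rab GTPases. In enterocytes this route carries pre-chylomicrons, the particles in which dietary fat leaves the cell, and SAR1B is the gene of a human chylomicron retention disease.

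Between 3720168 and 6338016 counts were obtained per library, of which the 51 genes took between 0.297% and 0.484%. Levels are given as normalized CPM, counts scaled to the library total (CPM) and by the trimmed mean of M values (TMM), and 3 values after a gene are the lowest, the median and the highest mouse of a group. Some libraries held transcripts of listed stomach, Brunner gland or pancreatic acinar genes. Of 10 listed stomach genes 9 were in the count table. Of 6 listed Brunner gland genes, *Cst10* and *Bpifb1* had 0 counts in every 3-day mouse and every 7-day control mouse. *Tff2* was on both lists and *Spdef* also on the goblet cell list, so the Brunner gland list is not specific. Means of log2 CPM over the stomach and Brunner gland genes with counts were 8.80 and 8.19 in control replicate 5 of 3 days. They were 8.61 and 7.54 in control replicate 2 of 7 days, and 4.23 and 7.44 in knockout replicate 1 of 3 days. Control replicate 1 of 3 days had 1.42 and 4.04 and control replicate 7 had 3.21 and 6.30, above 4 for the Brunner gland list alone. Counting every library with a mean above 4 on either list, these were 3 control and 1 knockout libraries at 3 days and 1 control library at 7 days, and with the list of 12 pancreatic acinar genes added they were 5 and 2 libraries at 3 days and 4 and 2 at 7 days. Member counts at 7 days and between the days, and counts over all genes at 3 days, are therefore also given without these libraries.

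At 3 days, 0 of the 50 tested genes passed the threshold in either direction (edgeR's quasi-likelihood test, adjusted p under 0.05 after Benjamini-Hochberg adjustment over all genes), while of all 20760 genes that were tested 1.11% had higher and 0.323% had lower counts in knockout mice. An unadjusted p under 0.05 was reached by 2 genes, and DESeq2 also called 0. The median log2 fold change of the genes was 0.037, beside -0.031 over all tested genes. *Mcfd2*, which pairs with the lectin *Lman1* to export glycoproteins, had the smallest adjusted p, with a log2 fold change of 0.58 (SE 0.22, adjusted p = 0.25), and was called in the absence of 1 mouse, knockout replicate 1. It was followed by *Tmed5*, with a log2 fold change of 0.23 (SE 0.11, adjusted p = 0.36). The lowest estimate of this day was that of *Copz2*, a zeta subunit of COPI, at -0.79 (SE 0.55, adjusted p = 0.59), and the highest that of *Sec23a*, at 0.58 (SE 0.31, adjusted p = 0.44). A lack of calls does not show equal levels. SEs of *Sar1b*, *Sec22c* and *Tfg* were 0.25, 0.26 and 0.29 here and 0.10, 0.10 and 0.17 at 7 days. Not every gene had a wider SE at 3 days, and *Copg2* had 0.11 here and 0.13 at 7 days. *Sec31b* was left out of all tests because it was at 0 in most mice, and its highest value in any mouse was 1.12 normalized CPM. Calls over all genes at 3 days depended on the libraries: 297 with every library and 779 without knockout replicate 1. They were 235 without the stomach or Brunner gland libraries, and 127 without those of pancreas too. The last fit lacked 5 of 7 control and 2 of 7 knockout mice, and the part of fewer mice in the lower count was not tested.

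At 7 days, 20 of 50 tested genes were lower and 6 were higher in knockout mice. Of all 20259 genes tested, 18.8% were lower and 19.7% higher, so the share of members that fell, 40%, was above this background and the share that rose, 12%, was below it. The share over all genes depends on how many low genes are tested. With edgeR's own filter on low counts, 7388 of 14178 genes were called in either direction, against 7790 of 20259 here. Directions were not counted apart with that filter, and the same limit applies to the other shares of all genes in this text. The members' median log2 fold change was -0.14, beside -0.019 over all genes. In the COPII classes 10 of 16 tested genes were lower and 1 higher, and no test compared the classes. In 13 of the 50 genes every knockout mouse lay below every control mouse, as in 10.5% of all genes tested, and in 1 gene, *Trappc5*, every knockout mouse lay above, as in 11.8% of all genes. Without the 1 control library with stomach and Brunner gland transcripts 19 genes were lower and 7 higher, and without all libraries with pancreas, stomach or Brunner gland transcripts, which leaves 4 knockout and 2 control mice, 18 were lower and 2 higher; calls in either direction over all genes were 38.5% with every library and 26.5% in the latter fit.

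**Figure D1:**
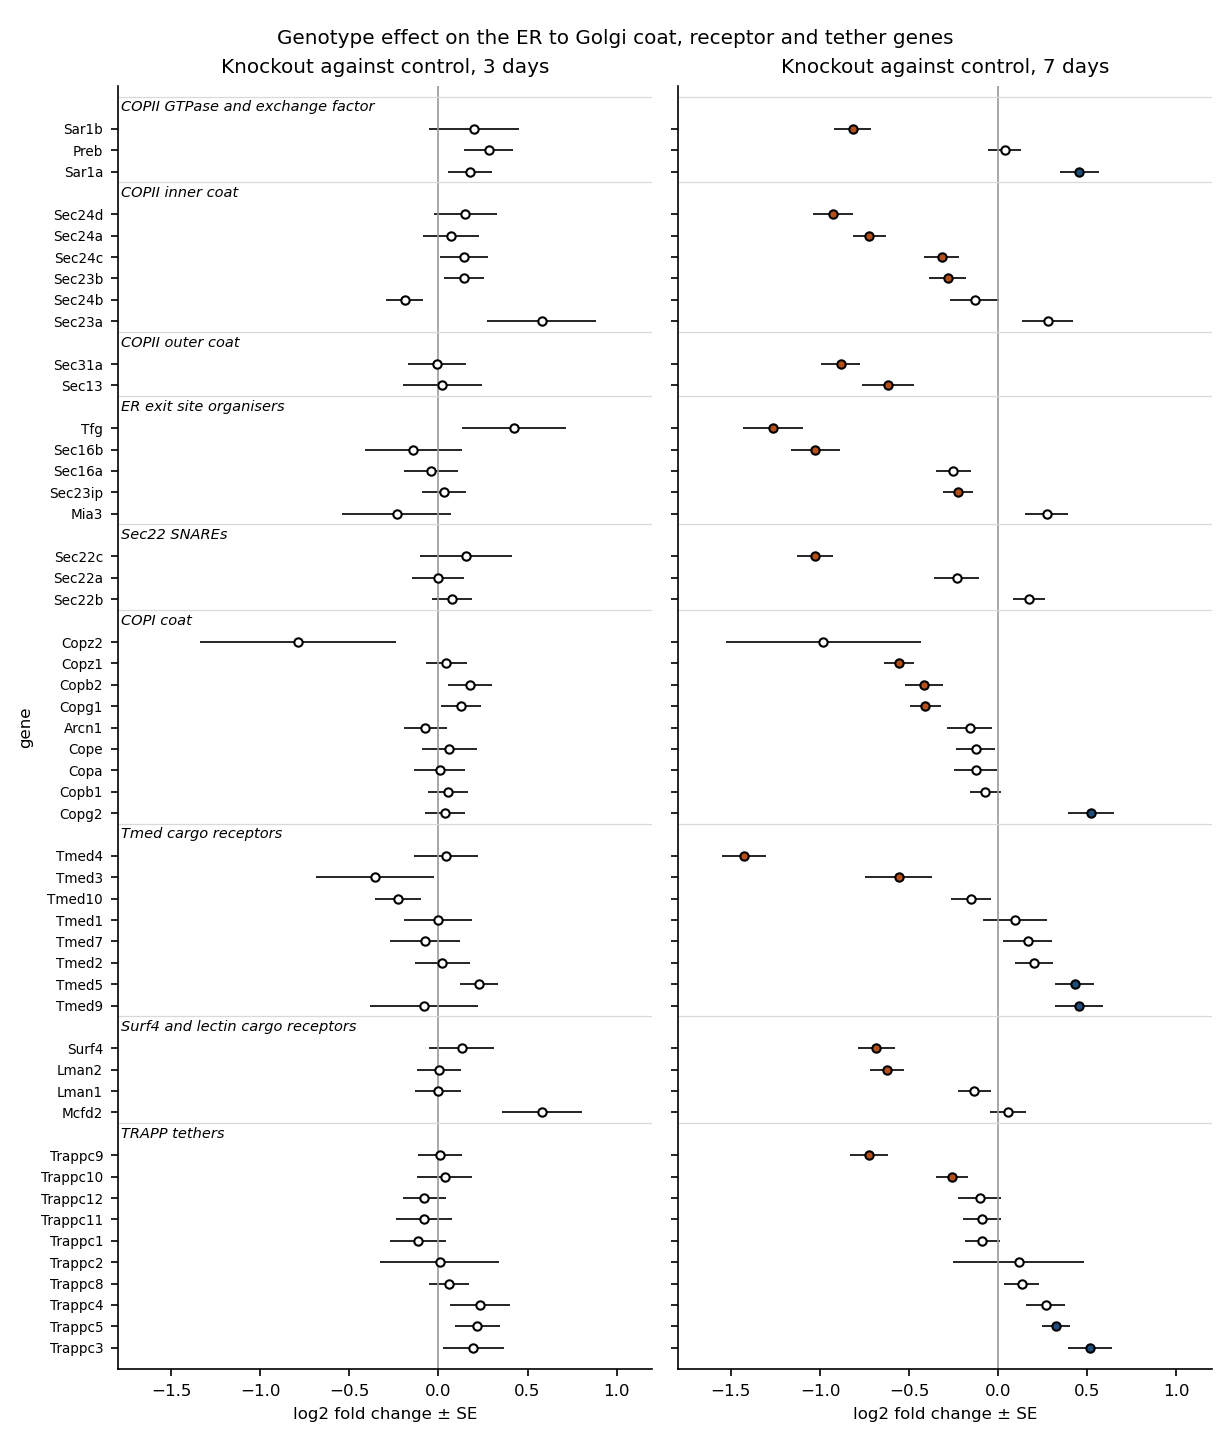
log2 fold change of knockout against control mice with its standard error for the 50 tested genes, by class, at 3 days (left, 7 mice per genotype) and at 7 days (right, 6 mice per genotype). Filled points passed an adjusted p under 0.05 (orange lower, blue higher), open points did not; 0 genes are filled at 3 days, and 20 lower and 6 higher at 7 days.

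Genes of the enterocyte fell at the same time. In 12 genes of the enterocyte and of chylomicron cargo, 10 of 11 tested genes were lower at 7 days, and their summed level lay between 16047 and 34668 normalized CPM in control mice and between 4687 and 7067 in knockout mice; *Vamp7*, a SNARE of that list, had 0 counts in every library. Among them were *Apob*, the structural protein of chylomicrons (-1.14, adjusted p = 5.5e-06), *Mttp*, which loads it with lipid (-1.11, adjusted p = 4.4e-07), and *Vil1*, the brush border protein whose promoter drives the Cre (-1.57, adjusted p = 1.2e-06). Beside these, of 10 plasma cell genes 7 were lower and 1 higher, and the summed levels lay between 13723 and 25878 in control and 5378 and 9364 in knockout mice. For smooth muscle 0 of 8 genes passed, for goblet cells 2 of 9 were lower and 1 higher, and for Paneth cells 1 of 7 was lower. Of all genes tested, 18.8% were lower and 19.7% higher. The lower shares of goblet cell genes (22.2%) and Paneth cell genes (14.3%) were near the former. In bulk tissue, fewer cells of a type and less RNA per cell cannot be told apart, and the part of these cell types in the changes of the coat genes was not tested.

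The start regions of the genes were searched for short motifs of ER stress and amino acid response, since secretory pathway genes are known targets of such responses. RefSeq promoters (GRCm38.p6, 250 bases before to 50 after the start, both strands) were matched for 43 of the 51 genes and for 27025 genes in all. TGACGTGG, the core of the UPR element (UPRE), was found in 5 of 43 members (11.6%) and in 193 of all genes (0.714%). The ER stress elements ERSE (CCAATN9CCACG) and ERSE-II (ATTGG, any base and CCACG) and the element TGATGNAAT of the amino acid response (CARE) were in 0 members, and in 0.137%, 0.0444% and 1.08% of all genes. The 5 windows are shown because they hold the motif, with 11 bases on either side and the match in capitals, read 5′ to 3′ along the strand of the gene; CCACGTCA is the reverse complement of TGACGTGG.

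Sec24d, chr3:123267459-123267488, strand +: gcccgggcgccTGACGTGGcactagcaacc
Sec16b, chr1:157506741-157506770, strand +: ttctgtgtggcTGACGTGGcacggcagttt
Copb2, chr9:98563713-98563742, strand +: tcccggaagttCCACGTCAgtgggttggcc
Copb1, chr7:114254690-114254719, strand -: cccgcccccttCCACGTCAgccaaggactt
Sec23a, chr12:59011993-59012022, strand -: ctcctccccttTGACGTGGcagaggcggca

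Counted from the start, the match lies at -26 to -19 in *Sec24d*, -44 to -37 in *Sec16b*, -7 to 1 in *Copb2*, -28 to -21 in *Copb1* and 7 to 14 in *Sec23a*. At 7 days *Sec24d*, *Sec16b* and *Copb2* fell and *Copb1* (-0.073) and *Sec23a* (0.28) did not pass, so the genes with the letters did not move alike. A match describes letters and not a bound site.

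Within the COPII GTPase class the isoforms went in opposite directions. *Sar1b* (ENSMUSG00000020386, chr11:51763687-51791925), the isoform needed for chylomicron export, had 97.0, 121 and 141 normalized CPM in the 7-day control mice and 58.7, 68.0 and 77.2 in the knockout mice. All 6 knockout mice lay below all 6 control mice, and the log2 fold change was -0.82 (SE 0.10, adjusted p = 4.5e-06). Its paralogue *Sar1a* (ENSMUSG00000020088, chr10:61680299-61693297) had 48.5, 61.3 and 75.3 in control and 74.7, 84.9 and 90.0 in knockout mice. The groups touched in that the highest control mouse was just above the lowest knockout mouse, and *Sar1a* rose with a log2 fold change of 0.46 (SE 0.11, adjusted p = 0.0024). *Preb*, the exchange factor that loads SAR1 with GTP, had 63.0, 67.9 and 76.1 in control and 58.4, 74.7 and 79.1 in knockout mice, and its groups overlapped, with a log2 fold change of 0.036 (SE 0.091, adjusted p = 0.8).

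The ratio of both isoforms within a mouse, computed with a prior count of 2, hardly depends on the scaling of the library. The log2 ratio of *Sar1a* to *Sar1b* was between -1.39 and -0.58 in the 7-day control mice and between 0.20 and 0.55 in the knockout mice, without overlap. At 3 days the ratio was between -0.25 and 1.99 in control mice and between -0.17 and 1.78 in knockout mice, with full overlap, so that the 7-day control mice were the group that stood apart. The 2 highest ratios of 3 days came from control replicate 5 and knockout replicate 1, both with stomach and Brunner gland transcripts. Yields of 3′ tags differ between genes, so the level of such a ratio has no meaning of its own and only its shift between groups is described.

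Within the inner coat, 4 of 6 genes fell and 0 rose, beside 18.8% and 19.7% of all genes. *Sec24d* (ENSMUSG00000039234, chr3:123267455-123365641), 1 of 4 cargo-binding SEC24 isoforms, had 53.9, 74.3 and 91.6 normalized CPM in control and 35.9, 39.2 and 43.6 in knockout mice at 7 days. *Sec24a* (ENSMUSG00000036391, chr11:51692264-51763634) had 99.8, 122 and 135 in control and 65.6, 74.1 and 81.4 in knockout mice. Neither gene had any overlap between the groups, and the log2 fold changes were -0.93 (SE 0.11, adjusted p = 2.8e-06) for *Sec24d* and -0.72 (SE 0.091, adjusted p = 3.6e-06) for *Sec24a*. *Sec24c* fell by less, with a log2 fold change of -0.32 (SE 0.10, adjusted p = 0.015), and *Sec24b*, with -0.13 (SE 0.14, adjusted p = 0.49), did not pass. *Sec23a* and *Sec23b* activate the GTPase of SAR1. *Sec23b* had 33.8, 44.6 and 48.5 in control and 30.4, 35.3 and 39.5 in knockout mice, and *Sec23a* had 151, 204 and 294 and 229.7, 258 and 291. The groups overlapped in both, and *Sec23b* fell (-0.28 on the log2 scale, SE 0.10, adjusted p = 0.036) and *Sec23a*, with 0.28 (SE 0.14, adjusted p = 0.14), did not pass. The call of *Sec23b* was lost without knockout replicate 5 or control replicate 3.

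Both tested subunits of the outer cage fell, as did 18.8% of all genes. *Sec31a* (ENSMUSG00000035325, chr5:100361649-100416234) had 336, 434 and 499.9 normalized CPM in control and 219, 232 and 267 in knockout mice, with no overlap, and a log2 fold change of -0.88 (SE 0.11, adjusted p = 2.7e-06). *Sec13* (ENSMUSG00000030298, chr6:113728062-113740743), which is also a nucleoporin, had 84.0, 116 and 180.2 in control and 72.2, 76.9 and 90.7 in knockout mice. The control mice of *Sec13* were spread widely and overlapped the knockout mice, and it fell by 0.62 on the log2 scale (SE 0.15, adjusted p = 0.0023).

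Among the exit site organisers the fall was largest for *Tfg* and *Sec16b*. *Tfg* (ENSMUSG00000022757, chr16:56690332-56717450), which forms assemblies between the ER and the Golgi and holds COPII carriers there, had 156, 252 and 340.1 normalized CPM in control and 84.7, 104 and 122 in knockout mice. Every knockout mouse lay below every control mouse, with a log2 fold change of -1.26 (SE 0.17, adjusted p = 8.6e-06). *Sec16b* (ENSMUSG00000026589, chr1:157506728-157568425), the shorter of the SEC16 scaffolds, had 36.7, 62.2 and 69.8 in control and 24.0, 27.9 and 35.5 in knockout mice. These groups were also apart, and *Sec16b* had a log2 fold change of -1.03 (SE 0.14, adjusted p = 8.9e-06). Its paralogue *Sec16a*, with a log2 fold change of -0.25 (SE 0.10, adjusted p = 0.058), did not pass. *Sec23ip*, a partner of SEC23 at exit sites, fell by 0.23 on the log2 scale (adjusted p = 0.044), a call that was lost in the absence of any of 7 of the 12 mice. *Mia3*, which exports bulky cargo such as collagen and chylomicron components, had a log2 fold change of 0.27 (SE 0.12, adjusted p = 0.083), which became 0.38, adjusted p = 0.0048 in the absence of control replicate 2.

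Within the Sec22 family, named for a SNARE of vesicle fusion, 1 of 3 genes fell, beside 18.8% of all genes. *Sec22c* (ENSMUSG00000061536, chr9:121680045-121705490) had 46.8, 56.6 and 63.5 normalized CPM in control and 24.9, 27.2 and 32.1 in knockout mice. No knockout mouse reached the lowest control mouse, and the log2 fold change was -1.03 (SE 0.10, adjusted p = 1.8e-07). *Sec22b* (ENSMUSG00000027879, chr3:97901190-97923276), the SNARE of the family that works in fusion between the ER and the Golgi, had 109, 131 and 141 in control and 126, 148 and 165 in knockout mice, which overlapped, with a log2 fold change of 0.17 (SE 0.092, adjusted p = 0.15). *Sec22a*, with -0.23 (SE 0.13, adjusted p = 0.16), did not pass either.

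**Figure D2:**
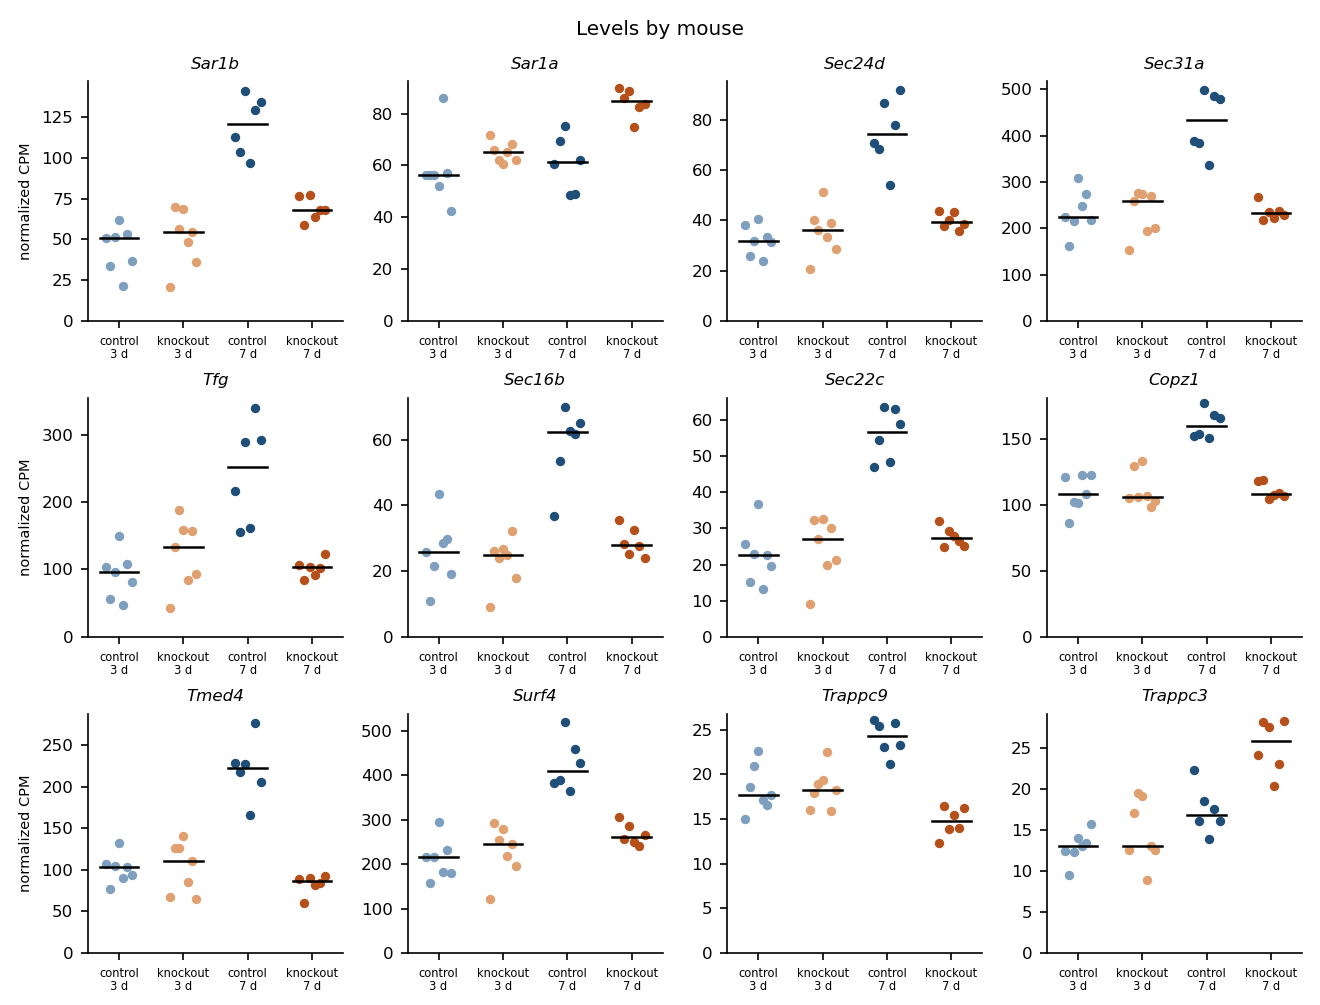
Normalized CPM of 12 of the genes, 1 point per mouse and a line at the median, in the control and knockout mice of 3 and 7 days (7, 7, 6 and 6 mice); every axis starts at 0. At 7 days the knockout mice lie below all control mice in 10 panels and above most of them for Sar1a and Trappc3.

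Of the coat subunits of COPI, 3 of 9 genes were lower and 1 higher, beside 18.8% and 19.7% of all genes. *Copz1* (ENSMUSG00000060992, chr15:103272714-103299868), the zeta subunit, had 150.4, 159.9 and 177 normalized CPM in control and 105, 109 and 119 in knockout mice. *Copg1* (ENSMUSG00000030058, chr6:87887814-87913595), a gamma subunit, had 68.5, 80.4 and 88.0 in control and 54.5, 60.4 and 67.1 in knockout mice. Both were free of overlap, with log2 fold changes of -0.56 (SE 0.082, adjusted p = 2.4e-05) for *Copz1* and -0.41 (SE 0.087, adjusted p = 9.3e-04) for *Copg1*. The paralogue *Copg2* had 18.1, 21.7 and 26.5 in control and 23.4, 32.7 and 37.9 in knockout mice. Its groups overlapped, and it rose with a log2 fold change of 0.52 (SE 0.13, adjusted p = 0.0034). *Copg1* and *Copg2* replace each other in the coat, and their log2 ratio was between 1.68 and 1.99 in control and between 0.62 and 1.33 in knockout mice at 7 days, and between 1.03 and 1.78 and between 1.41 and 1.84 at 3 days. The 7-day knockout mice had the lowest median ratio of the 4 groups, and overlapped only the 3-day control mice. The end of *Copg2* overlaps exons of *Mest*, which had a log2 fold change of 0.078, adjusted p = 0.83.

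*Copb2*, the beta-prime subunit, had 201, 233 and 292 normalized CPM in control and 173, 178 and 218 in knockout mice at 7 days. The groups overlapped through knockout replicate 1, and *Copb2* fell with a log2 fold change of -0.42 (SE 0.11, adjusted p = 0.0045). The other COPI subunits did not pass, and *Copa*, *Copb1*, *Cope* and *Arcn1*, the alpha, beta, epsilon and delta subunits, had log2 fold changes between -0.16 and -0.073. *Copz2* was low, with medians of 2.12 in control and 1.54 normalized CPM in knockout mice, and its log2 fold change of -0.98 (SE 0.55, adjusted p = 0.17) had the widest error of the class.

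**Figure D3:**
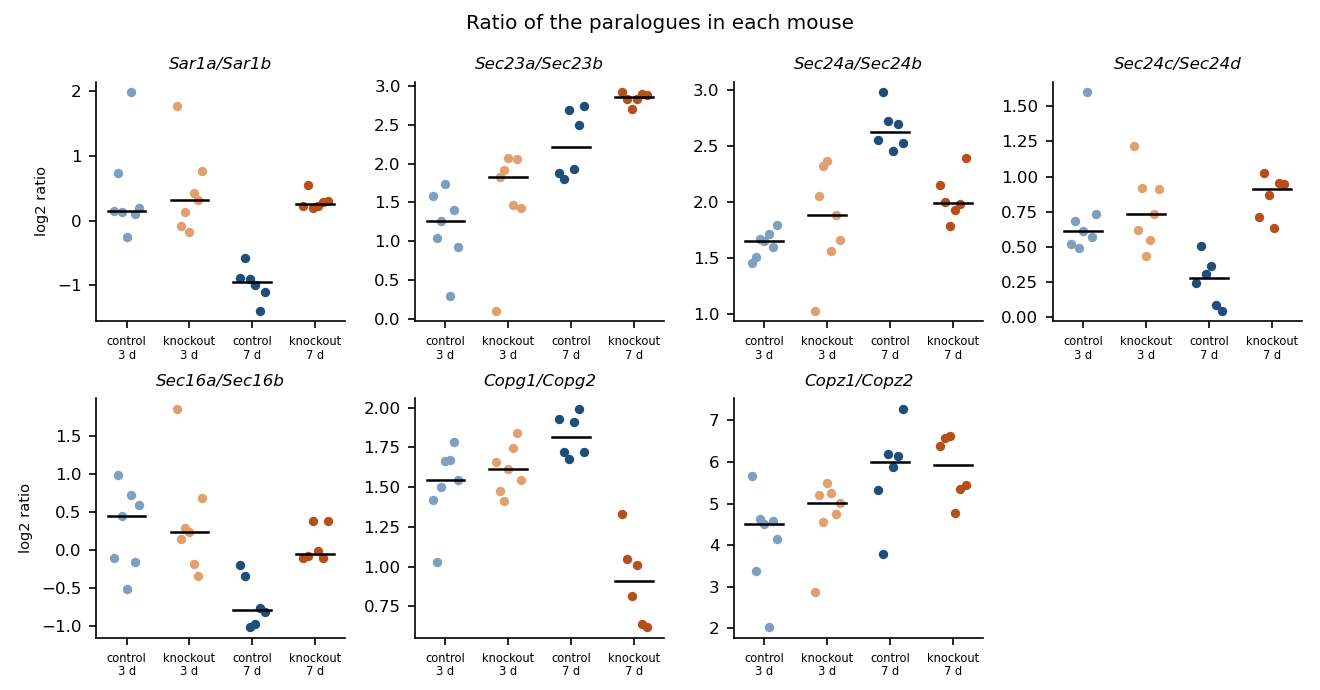
log2 ratio of normalized CPM of 7 paralogue pairs within each mouse, 1 point per mouse and a line at the median, in the 4 groups. The 7-day control and knockout mice are apart for Sar1a to Sar1b, Sec24a to Sec24b, Sec24c to Sec24d, Sec16a to Sec16b and Copg1 to Copg2, and overlap for Sec23a to Sec23b and Copz1 to Copz2.

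Tmed proteins span the membrane and select cargo for both coats, and 2 of the 8 genes were lower and 2 higher, not far from the 18.8% and 19.7% of all genes. *Tmed4* (ENSMUSG00000004394, chr11:6270369-6274870) had the smallest adjusted p of all 50 genes, with 166, 222 and 277 normalized CPM in control and 60.6, 86.5 and 91.9 in knockout mice. The highest knockout mouse was far below the lowest control mouse, and the log2 fold change was -1.43 (SE 0.12, adjusted p = 4.1e-08). *Tmed5* (ENSMUSG00000063406, chr5:108106366-108132620) had 29.3, 34.7 and 42.7 in control and 41.2, 46.5 and 54.9 in knockout mice. The groups overlapped slightly, and *Tmed5* rose with a log2 fold change of 0.43 (SE 0.11, adjusted p = 0.0039). Its end overlaps *Mtf2*, which had a log2 fold change of 0.018, adjusted p = 0.91. *Tmed9* had 106, 116 and 197 in control and 167, 180.2 and 207 in knockout mice, and *Tmed3* had 29.8, 32.8 and 67.0 and 19.3, 25.7 and 34.0, both with overlap. *Tmed9* rose (0.46 on the log2 scale, SE 0.13, adjusted p = 0.011) and *Tmed3* fell (-0.56 on the log2 scale, SE 0.19, adjusted p = 0.025), while *Tmed1*, *Tmed2*, *Tmed7* and *Tmed10* had log2 fold changes between -0.15 and 0.20 and did not pass. The call of *Tmed3* was lost without knockout replicate 3.

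*Surf4* and *Lman2* led the remaining cargo receptors, of which 2 of 4 fell, beside 18.8% of all genes. *Surf4* (ENSMUSG00000014867, chr2:26920040-26933928), a receptor for lipoproteins and other soluble cargo, had 364, 409 and 519 normalized CPM in control and 239.9, 261 and 307 in knockout mice. *Lman2* (ENSMUSG00000021484, chr13:55343833-55362783), a lectin of the early secretory pathway, had 161, 186 and 219 in control and 110.5, 125 and 133 in knockout mice. In both genes the groups were apart, and the log2 fold changes were -0.68 (SE 0.10, adjusted p = 3.0e-05) for *Surf4* and -0.62 (SE 0.094, adjusted p = 3.0e-05) for *Lman2*. *Surf4* shares its end with *Surf2*, which also fell (-0.91, adjusted p = 4.8e-07), and reads of overlapping exons were divided between genes, so the level of *Surf4* is uncertain to that extent. *Lman1* and *Mcfd2*, the partners of 1 receptor, had log2 fold changes of -0.13 (SE 0.091, adjusted p = 0.27) and 0.057 (SE 0.10, adjusted p = 0.7) and did not pass.

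Of the TRAPP subunits 2 of 10 were lower and 2 higher, shares near the 18.8% and 19.7% of all genes. *Trappc9* (ENSMUSG00000047921, chr15:72589620-73061204), a subunit specific to TRAPPII, had 21.1, 24.4 and 26.1 normalized CPM in control and 12.3, 14.8 and 16.5 in knockout mice. These did not overlap, and *Trappc9* had a log2 fold change of -0.73 (SE 0.11, adjusted p = 2.8e-05). *Trappc10*, the other subunit specific to TRAPPII, fell by less (-0.26 on the log2 scale, SE 0.09, adjusted p = 0.028) and lost its call without knockout replicate 4. *Trappc3* (ENSMUSG00000028847, chr4:126262325-126275883), a core subunit of all TRAPP complexes, had 14.0, 16.9 and 22.3 in control and 20.5, 25.9 and 28.3 in knockout mice. The highest control mouse lay within the knockout range, and *Trappc3* rose with a log2 fold change of 0.51 (SE 0.12, adjusted p = 0.0028). The core subunit *Trappc5* had 38.7, 43.0 and 47.2 in control and 50.8, 53.5 and 59.9 in knockout mice, with no overlap, and a log2 fold change of 0.33 (SE 0.081, adjusted p = 0.0034). The core subunits *Trappc1*, *Trappc2* and *Trappc4* and the TRAPPIII subunits *Trappc8*, *Trappc11* and *Trappc12* did not pass, with log2 fold changes between -0.10 and 0.27; *Trappc2* had 4 to 12 counts per mouse at 7 days, and its SE was 0.37.

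Beyond the 51 genes, 55 other genes of the early secretory route, such as its SNAREs, golgins, Arf and Rab GTPases and KDEL receptors, were all tested. At 7 days 15 (27.3%) were lower and 9 (16.4%) higher, beside 18.8% and 19.7% of all genes, with a median log2 fold change of -0.13, and at 3 days 0 passed in either direction while 4 had an unadjusted p under 0.05. The smallest adjusted p belonged to *Gbf1*, the exchange factor that activates ARF1 for COPI assembly, with a log2 fold change of -0.79 (SE 0.084, adjusted p = 4.3e-07). *Creb3l2*, a membrane-bound transcription factor known to activate secretory pathway genes, had a log2 fold change of -1.56 (SE 0.18, adjusted p = 1.7e-06). *Kdelr2*, a receptor that retrieves ER proteins from the Golgi, had a log2 fold change of -0.94 (SE 0.11, adjusted p = 1.8e-06). The summed level of these 55 genes lay between 4266 and 5706 normalized CPM in control and between 4301 and 4886 in knockout mice at 7 days.

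Whether the genotype effect differed between 3 and 7 days was tested with the interaction term of a fit over all 26 libraries. In 14 of 50 genes the effect at 7 days was lower than at 3 days, and in 1 gene it was higher, beside 9.74% and 8.64% of the 19604 genes tested. *Tmed4* (-1.45 on the log2 scale, SE 0.23, adjusted p = 3.8e-05) and *Sec24d* (-1.06 on the log2 scale, SE 0.22, adjusted p = 7.7e-04) had the smallest adjusted p, and *Tfg* had the largest difference, -1.67 (SE 0.37, adjusted p = 0.0017). They were followed by *Trappc9* (-0.72 on the log2 scale, SE 0.15, adjusted p = 0.0012) and *Copz1* (-0.58 on the log2 scale, SE 0.13, adjusted p = 0.0022). The other falls past the threshold were those of *Sec22c*, *Sar1b*, *Sec31a*, *Surf4*, *Sec24a*, *Lman2*, *Copb2*, *Copg1* and *Sec23b*, between -1.16 and -0.41. *Sec16b*, with -0.87 (SE 0.33, adjusted p = 0.068), did not pass in this fit. The call of *Sec23b* was lost in 17 of 26 fits that left out 1 mouse. *Copg2* went the other way, with 0.50 (SE 0.17, adjusted p = 0.039), and its call was lost in 16 of those 26 fits and without the 5 libraries with stomach or Brunner gland transcripts. Without those libraries 16 genes were lower and 0 higher, and without the 13 libraries with transcripts of pancreas, stomach or Brunner gland 5 were lower and 0 higher. Calls in either direction over all genes were 18.4% with every library, 19.1% without the 5 libraries and 7.59% without the 13. Among the 13 were 5 of 7 control mice of 3 days and 4 of 6 of 7 days. The part of fewer mice in the lower counts was not tested.

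The levels behind these terms differed in their order, and for *Copg2* the 7-day knockout mice had the highest median, 32.7 normalized CPM, against 21.7 in the 7-day control mice and 18.6 and 18.2 in the 3-day control and knockout mice. For *Tfg* the medians were 96.3 normalized CPM in control and 133 in knockout mice at 3 days, and 252 and 104 at 7 days. *Sec24d* had medians of 31.7, 35.9, 74.3 and 39.2 in the same order. *Tmed4* had 76.3, 104 and 132 in control and 65.3, 111 and 141 in knockout mice at 3 days. In each of the 3 genes the 7-day control mice had the highest median. *Sar1b* had 21.4, 50.99 and 62.0 in control and 20.7, 54.5 and 69.6 in knockout mice at 3 days. *Sec31a* had 162, 225 and 309 and 153, 260.0 and 277, and *Sec22c* had 13.3, 22.6 and 36.7 and 9.03, 27.0 and 32.6. For all 3, the ranges of both genotypes overlapped at 3 days, and every 7-day control mouse lay above the highest 3-day control mouse. *Surf4* had 159, 215 and 295 in control and 121, 244 and 293 in knockout mice, and *Lman2* had 121, 123 and 144 and 95.3, 135 and 166, at 3 days. *Sec24a* had 58.1, 64.6 and 76.9 and 41.6, 61.5 and 95.4. Each of these had its highest median in the 7-day control mice. *Copz1* had 86.3, 108 and 123 in control and 98.5, 106 and 133 in knockout mice at 3 days, so the 7-day knockout mice lay within both 3-day ranges. For *Trappc9*, 15.1, 17.7 and 22.7 in control and 15.9, 18.3 and 22.6 in knockout mice were measured at 3 days, and here the 7-day knockout mice had the lowest median of the 4 groups.

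Between the days, 34 of 50 genes were higher and 0 lower at 7 than at 3 days in control mice, beside 19.0% higher and 19.3% lower among 19604 genes. In knockout mice 15 were higher and 1, *Trappc9*, was lower, beside 20.1% and 20.2%. The members' median log2 fold change was 0.44 in control mice and 0.20 in knockout mice, and that of all genes -0.097 and -0.089. With library totals in place of TMM the median of all genes moved to -0.41 and -0.35, and the counts became 20 higher and 5 lower in control mice and 6 and 7 in knockout mice; with upper quartile scaling they were 26 and 1, and 11 and 2. Without the libraries with pancreas, stomach or Brunner gland transcripts they were 22 and 0, and 18 and 1, where 12.6% and 33.9% of all genes were called in either direction, against 38.4% and 40.3% with every library. That fit lacked 5 of 7 control mice of 3 days and 4 of 6 of 7 days. It also lacked 2 of 7 and 2 of 6 knockout mice. The part of fewer mice in the lower counts was not tested. The day may coincide with a batch that the labels do not give, so the day and such a batch cannot be told apart.

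In control mice *Sec23a* rose most, with a log2 fold change of 1.54 (SE 0.27, adjusted p = 8.3e-05), followed by *Sar1b* (1.44), *Tfg* (1.41), *Sec22c* (1.33) and *Sec24d* (1.23). The respective values in knockout mice were 1.26 (adjusted p = 4.0e-04), 0.44, -0.26, 0.17 and 0.17, of which *Sec23a* alone passed. *Copg2* rose in both, by 0.31 (SE 0.12, adjusted p = 0.045) on the log2 scale in control and by 0.81 (SE 0.12, adjusted p = 4.6e-06) in knockout mice, though with library totals its control estimate became -0.011, and the control call was lost in 9 fits that left out 1 mouse. *Sec22b* had log2 fold changes of 0.62 and 0.73, and *Trappc3* 0.44 and 0.78, all past the threshold. *Trappc9* went apart, with log2 fold changes of 0.40 (SE 0.11, adjusted p = 0.0046) in control and -0.32 (SE 0.11, adjusted p = 0.023) in knockout mice. The knockout fall was lost without any of 6 mice (knockout replicates 2, 4 and 5 of 3 days and 1, 3 and 5 of 7 days) and without the libraries with pancreas, stomach or Brunner gland transcripts, and the control rise was lost in both exclusions of libraries and became 0.078 with library totals. Beside these changes, all 11 tested enterocyte genes were higher and all 8 smooth muscle genes lower at 7 days in control mice, and in knockout mice 3 enterocyte genes were lower and all 8 smooth muscle genes lower. Goblet cell genes were higher in 7 of 9 cases in control and 6 of 9 in knockout mice, and of 10 plasma cell genes 6 were lower in control mice and 8 lower and 1 higher in knockout mice. Of all genes, 19.0% were higher and 19.3% lower in control mice, and 20.1% and 20.2% in knockout mice. Summed enterocyte levels were between 995 and 10681 in the 3-day control and between 788 and 13351 in the 3-day knockout mice, and those of smooth muscle between 1697 and 2937 and between 1190.2 and 4203, against 772 and 1221 and 897 and 1275 at 7 days. The part of this shift in the coat genes was not tested.

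**Figure D4:**
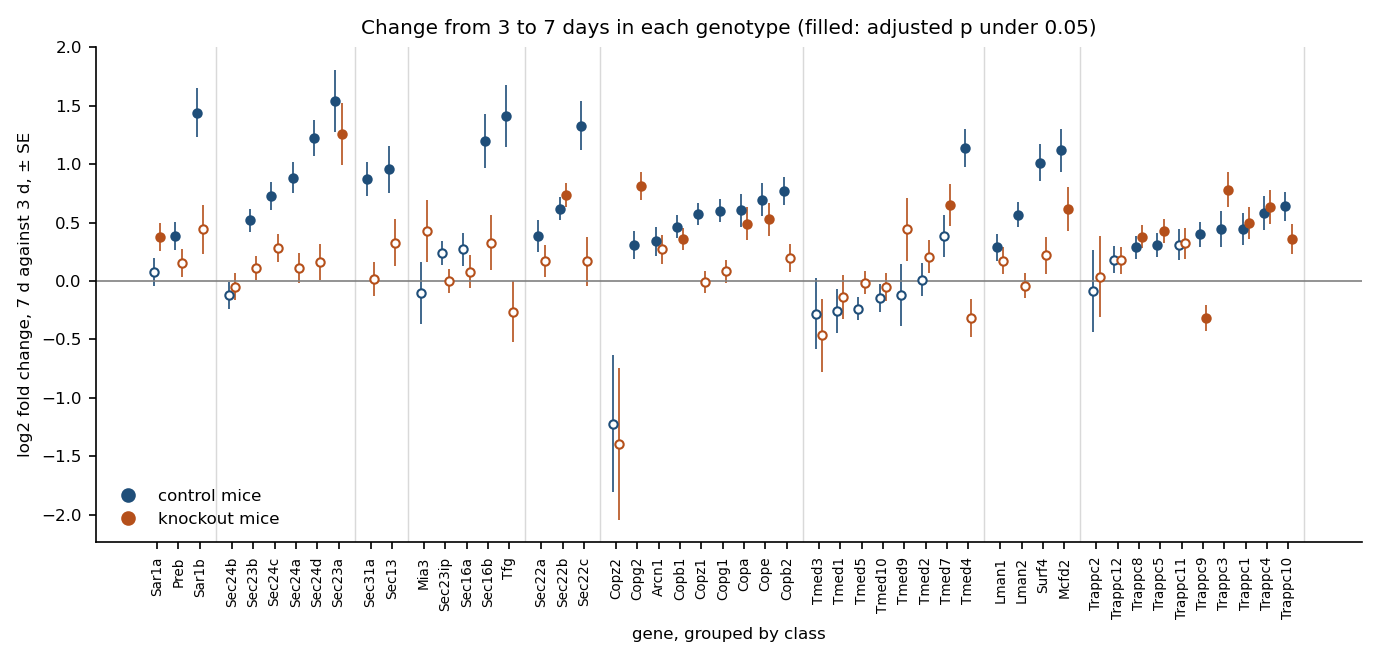
log2 fold change from 3 to 7 days with its standard error for the 50 tested genes, grouped by class, in control mice (blue) and knockout mice (orange), from the fit with TMM scaling. Filled points passed an adjusted p under 0.05, which were 34 higher and 0 lower in control mice and 15 and 1 in knockout mice; with library totals they were 20 and 5, and 6 and 7.

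Summed over a class, the median level in control and knockout mice was 294 and 335 at 3 days and 552 and 311 at 7 days for the outer coat of COPII. The ranges of the outer coat at 7 days, between 420.1 and 680.0 normalized CPM in control and between 294 and 351 in knockout mice, did not overlap. For the inner coat the medians were 271 and 342 at 3 days and 563 and 499.4 at 7 days. The ranges of the inner coat overlapped at 7 days. For the *Surf4* and lectin receptors they were 523 and 564 at 3 days and 873 and 629 at 7 days, with ranges at 7 days that were apart. The COPI coat had 674 and 728 at 3 days and 1046 and 878 at 7 days, and its ranges overlapped. The TRAPP tethers had 286 and 304 at 3 days and 374 and 378 at 7 days, nearly the same in both genotypes of a day. Such sums follow the genes with the most tags and do not count how many members moved. *Sec23a* had 7-day medians of 204 in control and 258 in knockout mice, a large part of the inner coat sums. *Sec31a* had 434 and 232, most of the outer coat sums.

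Some genes, named after their values were seen, were highest in the libraries with stomach transcripts. *Mia3* had 800.5 normalized CPM in control replicate 5 of 3 days, where the next highest control mouse of that day had 253. It had 392 in knockout replicate 1 of 3 days and 371 in control replicate 2 of 7 days, each the highest of its group. These are the 3 libraries with the highest stomach gene levels. *Tmed3* had 131, 64.7 and 67.0, *Tmed9* had 384, 191 and 197, and *Copz2* had 29.9, 14.1 and 10.8 in the same libraries, again the highest of each group. At 7 days, without control replicate 2, the log2 fold change between genotypes was 0.59, adjusted p = 9.5e-05 for *Tmed9* and -0.34, adjusted p = 0.037 for *Tmed3*. In control mice between the days, the sign of *Mia3* turned from -0.11 to 0.40 without control replicate 5 of 3 days (adjusted p = 0.036). Control replicate 5 and knockout replicate 1 of 3 days also had the lowest enterocyte list means of their groups, 5.99 and 5.80 log2 CPM. The part of stomach tissue or of fewer enterocytes in these levels was not tested.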

How the data were processed

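The authors trimmed QuantSeq reads (cutadapt 2.10), aligned them to GRCm38 (Subread) and counted them per gene with featureCounts 2.0.1, dividing reads on several genes, so the deposited values are estimated counts, of which 95.0% are whole; a strand option is not given in the sources used here. Deposited CPM values equal the counts over the library total and entered no test. Counts were rounded and tested with edgeR 4.0.16 (R 4.3.3) by quasi-likelihood with TMM scaling, with 1 fit per day for genotype and 1 fit of all 26 libraries for the interaction and the days. A gene with 0 counts in a share above 0.5 of the mice of a group was dropped, as in the study. Calls had a Benjamini-Hochberg adjusted p under 0.05 over all genes; SEs were derived from the F statistic. Standard errors cover the spread between mice, and totals of 3720168 to 6338016 counts limit the precision of low genes. Values per mouse were given for the 2 members of each class with the smallest adjusted p at 7 days, up to 5 called at 3 days and up to 5 called for the interaction, and 3 of the other early secretory genes were named by adjusted p; further genes were chosen after their values were seen. Members, lists and classes were chosen with earlier results of these data known. DESeq2 1.42.0, other scalings and filters, a replicate block and leaving out each mouse were tried. Gene positions are from GENCODE vM21 (GRCm38). Same-numbered mice of both genotypes were not treated as pairs. The targeted gene and its levels are not reported here.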

Additional observations from a re-analysis of the deposited data

Results flagged for a closer look

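Among 203 sets of 1 gene and 1 group, 27 held a mouse whose gap to its nearest neighbour was wide for the range of the group. For independent, normally distributed values the cut is nominally met by 1 in 20 sets, or 10.15. These sets share mice and are not independent, so 27 beside 10.15 is not a test. Control replicate 5 of 3 days, with the highest stomach and Brunner gland gene levels, was such a mouse for 10 genes, in each as the highest: *Mia3* at 800.5 normalized CPM (nearest other mouse 253), *Tmed9* at 384 (117), *Lman1* at 197.0 (144), *Tmed3* at 131 (40.3), *Cope* at 87.5 (66.1), *Sar1a* at 86.0 (57.2), *Tmed2* at 56.9 (37.8), *Sec23ip* at 47.7 (39.6), *Sec16a* at 47.2 (30.1) and *Copz2* at 29.9 (7.96). Control replicate 2 of 7 days was highest for *Mia3* (371, nearest 266), *Tmed3* (67.0, nearest 36.8) and *Copz2* (10.8, nearest 3.45), and knockout replicate 1 of 3 days for *Mia3* (392, nearest 234) and *Copz2* (14.1, nearest 4.15). Knockout replicate 1 of 7 days was highest for *Sec31a* (267, nearest 236.5), *Copb2* (218, nearest 183) and *Mcfd2* (105.0, nearest 89.8), and control replicate 2 of 3 days was lowest for *Sec22b* (68.5, nearest 82.1) and *Mcfd2* (23.1, nearest 37.1). The remaining mice stood apart for 1 gene each: knockout replicates 4 and 5 of 3 days for *Copb1* (highest, 78.4) and *Sec23ip* (lowest, 24.98), control replicate 1 of 3 days for *Tmed7* (highest, 40.1), and knockout replicates 2, 3, 4 and 6 of 7 days for *Tmed4* (lowest, 60.6), *Sec31b* (highest, 1.12), *Trappc11* (lowest, 24.4) and *Trappc1* (highest, 51.7).

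The genotype effect differed between the days in 15 genes by the interaction term. The log2 fold change at 7 days minus that at 3 days was -1.67 for *Tfg*, -1.45 for *Tmed4*, -1.16 for *Sec22c*, -1.06 for *Sec24d*, -0.996 for *Sar1b*, -0.86 for *Sec31a*, -0.79 for *Surf4*, -0.77 for *Sec24a*, -0.72 for *Trappc9*, -0.61 for *Lman2*, -0.58 for *Copz1*, -0.57 for *Copb2*, -0.52 for *Copg1*, -0.41 for *Sec23b* and 0.50 for *Copg2*.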

How the results depend on the processing

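Exclusion of libraries by stomach, Brunner gland or pancreas genes was chosen after seeing the data. Outside the leave-one-out fits, 2211 results of single members kept their side of the threshold, 89 lost and 43 gained a call, and 5 changed sign. Leaving out 1 mouse gave 5028, 81, 90 and 1. A change of sign was counted only for a gene called in the main fit or in the other fit. The 2211 and 5028 may therefore hold uncalled results that changed direction. In control mice between the days, *Mia3* turned from -0.11 to 0.40 without control replicate 5 of 3 days (leave-one-out range -0.19 to 0.40) and to 0.34 without stomach or Brunner gland libraries, and with library totals the called rises became -0.011 for *Copg2*, -0.030 for *Lman1*, -0.015 for *Trappc5* and -0.032 for *Trappc8*. With library totals 20 members were higher and 5 lower between the days in control mice and 6 and 7 in knockout mice, and upper quartile scaling gave 1 and 2 lower. The 1 gene with a higher effect at 7 days, *Copg2*, was lost (0 genes) with DESeq2 size factors in edgeR, with no filter on low counts, with the replicate block and in both exclusions of libraries. Without stomach or Brunner gland libraries 1 member was lower between the days in control mice; without pancreas, stomach or Brunner gland libraries 2 were higher at 7 days by genotype, 5 had a lower effect at 7 days and 22 rose between the days in control mice, with fewer mice in each fit.

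Leaving out 1 mouse gave 0 to 1 members higher at 3 days, 6 to 8 higher and 18 to 21 lower at 7 days, 0 to 1 higher and 13 to 18 lower for the interaction, 28 to 38 higher and 0 to 1 lower between the days in control mice, and 14 to 19 higher and 0 to 2 lower in knockout mice. The genotype counts at 7 days stayed at 5 to 7 higher and 16 to 21 lower under the other fits and scalings of all libraries.

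Same-numbered mice did not deviate together as a rule, with correlations from -0.39 to 0.49 at 3 days and from -0.30 to 0.49 at 7 days. Of the mice, 2 of 7 and 2 of 6 correlated best with their own number. The labels give no litter or processing order, so this check cannot exclude that some same-numbered mice share them. With the replicate block 7 members were higher and 19 lower at 7 days, 0 and 0 at 3 days, and 0 and 13 for the interaction. Low counts limit *Copz2*, *Trappc2* (3 to 12 counts per mouse) and *Sec31b*. The causes of these shifts were not tested.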

Other observations

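Not all genes of the early secretory route fell at 7 days. Of the 55 other genes of the route, 9 (16.4%) were higher in knockout mice, below the 19.7% of all genes tested, so the count is no result about the route; the largest rises, named after their values were seen, were those of *Bcap29*, an ER membrane protein that handles exported membrane proteins, with a log2 fold change of 1.08 (SE 0.14, adjusted p = 5.4e-06), and of *Gosr1*, a Golgi SNARE, with 1.05 (SE 0.15, adjusted p = 1.2e-05). *Use1*, a SNARE of retrograde fusion at the ER, had 0.74 (SE 0.11, adjusted p = 3.3e-05), *Cnih4*, a cargo receptor, had 0.66 (SE 0.10, adjusted p = 2.9e-05), and *Klhl12*, an adaptor that marks SEC31 with ubiquitin and enlarges COPII carriers, had 0.65 (SE 0.12, adjusted p = 2.0e-04). *Cnih1*, *Stx18*, *Bnip1* and *Trappc2l* were the others, between 0.39 and 0.60. *Klhl12* rose while its substrate gene *Sec31a* fell by 0.88 on the log2 scale. Among the genes that fell with *Creb3l2* was its relative *Creb3* (-0.98), whereas *Creb3l3*, the liver and intestine member of the family, had -0.13 (SE 0.12, adjusted p = 0.43) and did not pass. Over the 55 genes, the genotype effect at 7 days was lower than at 3 days in 9 and higher in 3, beside 9.74% and 8.64% of all genes. Between the days 36 were higher and 3 lower in control mice, beside 19.0% and 19.3% of all genes, and 30 and 2 in knockout mice, beside 20.1% and 20.2%.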
